A study of Mus musculus with 2 samples.

Results

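Of the 8226 peaks deposited for a DamID map of Dnmt1 in cleavage-stage mouse embryos, 629 lay in intergenic DNA and named a SINE among their repeat classes. They were selected by these annotations and not by their heights. They made up 44.8% of the peaks that named a SINE and 15.0% of the 4180 intergenic peaks (95% interval 14.0 to 16.2), and were compared with the other 3551 intergenic peaks. A peak was intergenic when it lay outside the assigned gene, beyond 10 kb upstream of its transcription start site and, on the downstream side, beyond 1 kb from it. All 8226 peaks followed that rule.

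SINEs are short interspersed elements that encode no protein and are copied through RNA by the enzymes of LINEs, the autonomous elements. The main mouse families, B1 and B2, descend from small RNA genes (7SL RNA and tRNA) and are most frequent in gene-rich parts of the genome. Dnmt1 copies CpG methylation onto newly made DNA strands, and in the early embryo, while most methylation is being lost, it helps to keep it at imprinted loci and at some retroelements. In DamID a protein is joined to Dam, a bacterial enzyme that methylates adenine in GATC, so that the DNA near the protein is marked. Dam without a partner marks accessible DNA and gives the background.

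The study had 2 groups of 1 library each. Zygotes were taken after superovulation from females of 5 weeks and strain BCF1 (C57BL/6 x CBA/CA), and 50 embryos were injected for each group, with Dnmt1-V5-Dam or with Dam-only, and pooled at the 4- to 8-cell stage. The labels name no change to the embryos' own Dnmt1 gene, and both groups carry an introduced Dam. The heights are whole numbers whose scaling is not stated, and with no read totals at hand the depth is unknown. The table lists only peaks whose Dnmt1-Dam height was at least 7, at least 2 times the Dam-only height and at least 6 above it. With 1 library per group no difference between the libraries has a replicate check, and no p-value was computed. The intervals below treat peaks as independent, cover counting error only and were not adjusted for the 21 measures compared. The sequences under these peaks were not used here, and the file does not name SINE families.

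Intergenic SINE peaks lay closer to genes than other intergenic peaks. Their median distance to the start site of the assigned gene was 63.5 kb (95% interval 54.6 to 74.5, quartiles 24.5 and 182), against 111 kb (102 to 120, quartiles 38.8 and 299) for the other intergenic peaks. The SINE median was the shorter on 17 of 19 autosomes. Only 239 of the 629 (38.0%, 34.2 to 41.9) were more than 100 kb from the start site, against 52.3% of the others, a difference of -14.3 percentage points (-18.4 to -10.1), and their share was the lower on 18 of 19 autosomes. Among peaks of height 15 or more (61 SINE and 278 other intergenic peaks) the difference was -8.66 percentage points. It has no interval here, so whether the difference changes with height cannot be read from it. At the near end, 165 SINE peaks (26.2%, 22.8 to 29.9) were within 25 kb, against 16.0% of the others.

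The share of SINEs among intergenic peaks was smaller at each larger distance. Within 25 kb of the start site, 165 of 734 intergenic peaks named a SINE (22.5%, 19.5 to 25.7). The share was 17.9% at 25 to 50 kb, 15.6% at 50 to 100 kb, 13.7% at 100 to 200 kb and 11.4% at 200 to 500 kb. Beyond 500 kb, 40 of 501 named one (7.98%, 5.76 to 10.7). The intervals of adjacent distance classes overlapped, while those of the nearest and the farthest class did not. LINEs had the opposite order, from 7.63% within 25 kb (5.81 to 9.79) to 17.2% beyond 500 kb (14.0 to 20.8). LTR elements, which include the endogenous retroviruses, stayed between 12.9% and 17.2%. The coverage of intergenic DNA by each class at each distance was not analysed here, and the shares are no measure of enrichment.

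**Figure D1:**
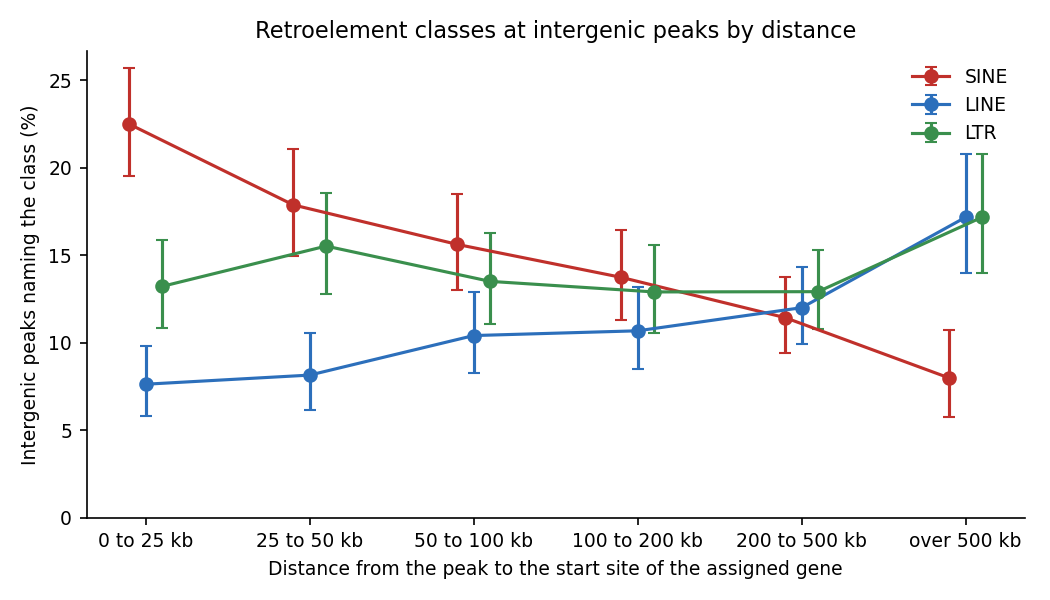
Share of intergenic peaks (%) naming a SINE, LINE or LTR element, by distance of the peak to the start site of the assigned gene. Points are shares and bars are 95% exact binomial intervals for counting error; SINEs go from 22.5% in the nearest class to 7.98% in the farthest and LINEs from 7.63% to 17.2%.

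The distance held on both sides of the gene. Of the SINE peaks, 392 (62.3%, 58.4 to 66.1) were upstream of the start site, at a median of 56.9 kb, and 237 were downstream, at a median of 80.2 kb. For the other intergenic peaks the upstream share was 57.6% (55.9 to 59.2), with medians of 93.8 kb upstream and 139 kb downstream. The upstream share differed by 4.73 percentage points (0.555 to 8.78). Intergenic LINE peaks without a SINE also had an upstream share of 62.3% (interval of the difference -5.89 to 5.95). Measured to the nearer end of the gene, the medians were 52.0 kb and 87.6 kb.

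The intergenic rule leaves out the 10 kb upstream of a start site, so a peak nearer than that can only be downstream. The nearest SINE peak lay 3.14 kb downstream of the start site of Ifnl3 (Il28b in the file), an antiviral interferon lambda gene, on chromosome 7 at 29310991 (mm9). It had a height of 7 in the Dnmt1-Dam library against 1 in the Dam-only library. The next 2 were neighbors downstream of Rpl37, a ribosomal protein gene, on chromosome 15 at 5069971 and 5070081, both of height 9 against 1. The farthest was 1778 kb upstream of Dsel on chromosome 1 at 115539151 (7 against 1). The next farthest was 1756 kb downstream of the start of Efnb2, an ephrin ligand gene, on chromosome 8 at 6905001 (7 against 1). A peak 1732 kb upstream of Pcdh17, a protocadherin adhesion gene, on chromosome 14 at 83113481, also had 7 against 1. All 3 farthest peaks thus sat at the smallest height in the table, as did 22.7% of all intergenic SINE peaks. With 3 peaks no change of height with distance can be read from this.

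Dnmt1-Dam heights were low at most of these positions. The median was 9 (quartiles 8 and 11, range 7 to 202), against 9 (quartiles 7 and 11, range 7 to 66) for the other intergenic peaks. Of the SINE peaks, 61 (9.70%, 7.50 to 12.3) reached a height of 15, against 8.66% of all peaks and 7.83% of the other intergenic peaks. A height of 20 was reached by 19 (3.02%, 1.83 to 4.68), against 2.63% of all peaks. The difference from the other intergenic peaks at height 15 was 1.87 percentage points (-0.404 to 4.57), with the SINE share higher on 10 of 19 autosomes, so over all distances no difference in tall peaks was detectable. By distance, 8.60% of SINE and 9.42% of other peaks reached 15 within 50 kb of the start site (-0.821 percentage points, -4.15 to 3.37), 10.95% and 6.79% at 50 to 200 kb (4.16, 0.293 to 9.27), and 14 of 140 and 7.44% beyond 200 kb (2.56, -1.70 to 8.79). The interval excluded 0 in the middle class only, and the difference between the distance classes was not tested. A height of 9 was reached by 54.8% of SINE and 50.9% of other intergenic peaks (3.99 percentage points, -0.248 to 8.17). That SINE share was the higher on 12 of 19 autosomes. The height limits set for comparison were 9, 15 and 20. The share at the smallest height, 7, was a further measure, and there the interval of the difference excluded 0. That height was listed at 143 SINE peaks (22.7%, 19.5 to 26.2), against 28.8% of the others (-6.07 percentage points, -9.53 to -2.34). The SINE share at height 7 was the lower on 16 of 19 autosomes. A height of 7 can occur only with a Dam-only height of 1. Among peaks at that Dam-only height, 31.2% of SINE and 36.9% of other intergenic peaks had a height of 7 (-5.75 percentage points, -10.2 to -1.02), with the SINE share lower on 13 of 19 autosomes. Against 2 other classes the interval of the difference in the share at height 7 included 0: the share was 23.2% in the SINE peaks of gene bodies (-0.474 percentage points, -5.09 to 4.15) and 26.5% in intergenic LINE peaks without a SINE (-3.78, -9.13 to 1.46).

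**Figure D2:**
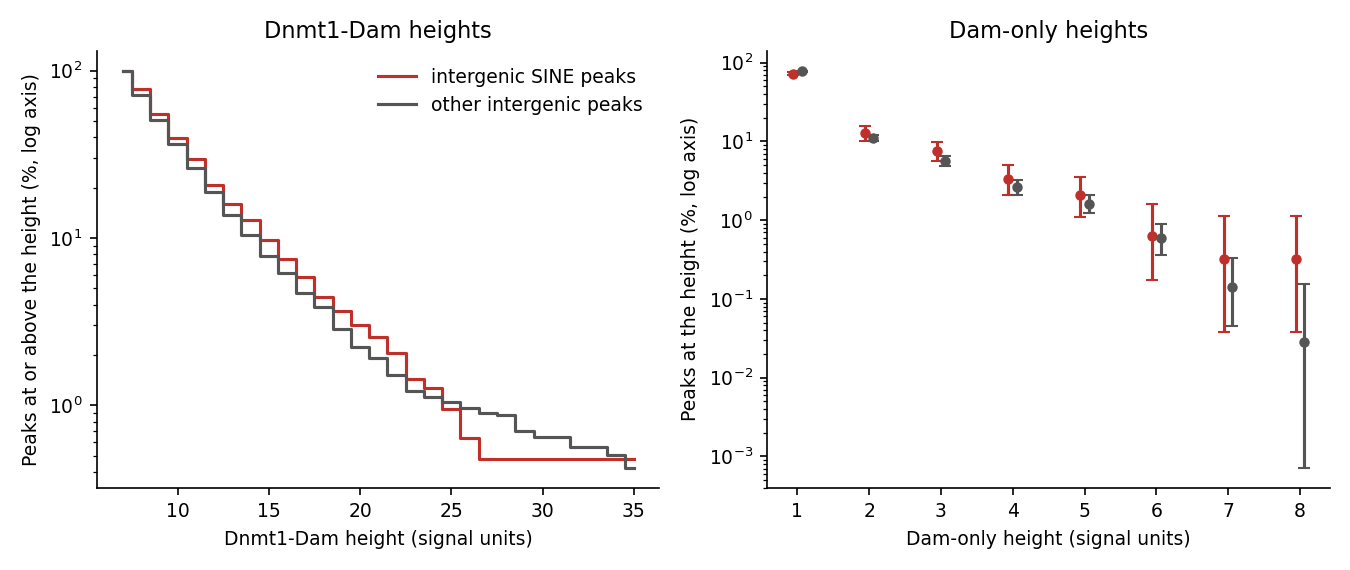
Left, percentage of peaks (log axis) at or above each Dnmt1-Dam height, up to 35; right, percentage of peaks (log axis) at each Dam-only height from 1 to 8, with 95% exact binomial intervals. Red is the 629 intergenic SINE peaks and grey the 3551 other intergenic peaks; 72.97% of the SINE peaks and 78.06% of the others had a Dam-only height of 1.

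The Dam-only signal was above its floor more often at SINE peaks than at other intergenic peaks. A Dam-only height above 1 was listed at 170 of 629 SINE peaks (27.0%, 23.6 to 30.7), against 24.2% of all peaks. In the other intergenic peaks it was 779 of 3551 (21.9%, 20.6 to 23.3). The difference was 5.09 percentage points (1.49 to 8.93), and the SINE share was the higher on 14 of 19 autosomes. Against intergenic LINE peaks without a SINE the interval of the difference included 0 (5.17, -0.147 to 10.3). No peak of height 7 can have a Dam-only height above 1, so this share is linked to the share at height 7. A Dam-only height of 3 or more was listed at 90 SINE peaks (14.3%, 11.7 to 17.3), against 10.8% of the others. The share at a Dam-only height of 1 differed by -5.09 percentage points over all heights and by -3.95 among peaks of height 9 or more. Among peaks of height 15 or more (61 SINE and 278 other intergenic peaks) it differed by -0.938 percentage points. The values at these height limits have no interval here, so a change with height cannot be read from them. The Dam-only signal was then compared within classes of distance. Within 50 kb of the start site, 30.5% of SINE peaks (25.1 to 36.2) and 25.3% of the others (22.8 to 28.0) were above 1. At 50 to 200 kb the shares were 23.8% (18.2 to 30.2) and 22.2% (19.9 to 24.6). Beyond 200 kb, 35 of 140 SINE peaks (95% interval 18.1 to 33.0%) and 18.7% of the others (16.6 to 21.0) were above 1. The SINE share was the higher in each of the 3 distance classes, by 5.12, 1.63 and 6.31 percentage points, but the interval of each of these differences included 0.

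**Figure D3:**
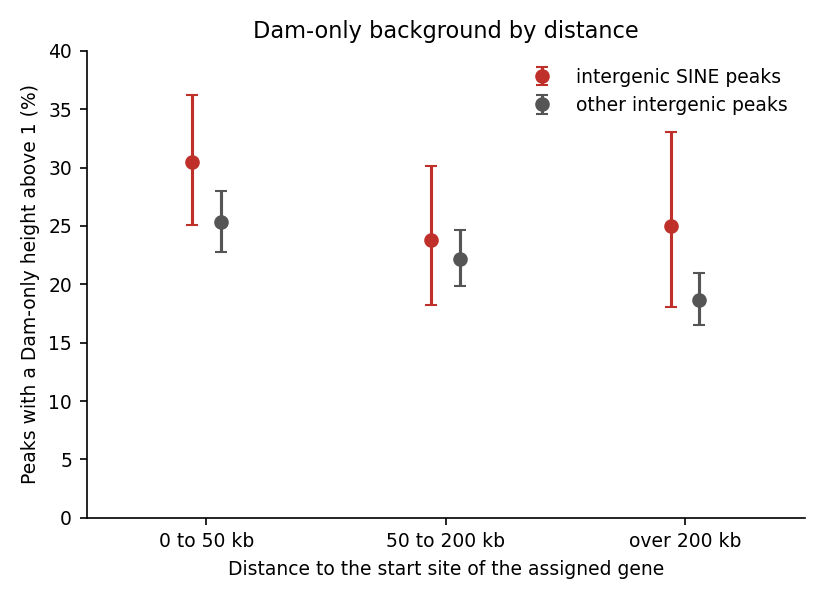
Percentage of peaks with a Dam-only height above 1, by distance to the start site of the assigned gene, for intergenic SINE peaks (red) and other intergenic peaks (grey). Bars are 95% exact binomial intervals; the SINE points lie higher in each class, at 30.5% against 25.3% within 50 kb, and the intervals of the classes overlap at each distance.

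The ratio of the 2 heights did not separate the classes. A ratio of 10 or more was found at 148 SINE peaks (23.5%, 20.3 to 27.0), against 23.4% of all peaks and 23.1% of the other intergenic peaks (0.381 percentage points, -3.07 to 4.11). The sign of this difference turned under 4 alternatives. The median ratio was 8 in both classes. On the log2 scale, with 1 added to each height and the ratio of the heights' sums over all peaks set to 0, the median was -0.59 in both.

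The 10 highest SINE peaks had Dnmt1-Dam heights from 22 to 202. The highest, on chromosome 5 at 106479661, lay 174 kb downstream of the start of Zfp326, a zinc finger protein gene, and had 202 against 1. It stood far from the rest. The second, 54 against 1, was 510 kb upstream of Rag2, a subunit of the antigen receptor recombinase, on chromosome 2 at 100954771. The third, 35 against 1, was 59.7 kb upstream of Uspl1, a SUMO peptidase gene, on chromosome 5 at 149936391. Below these 3 the heights were closely spaced.

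The peak of 26 against 5 lay in the shore of a CpG island 40.1 kb upstream of Ptgis, the prostacyclin synthase gene, on chromosome 2 at 167106141. A pair of peaks on chromosome 1 at 79407661 and 79407751 had 24 against 1 and 25 against 1 and lay 29.0 and 28.9 kb downstream of the start of Scg2, which encodes a secretogranin of neuroendocrine granules. The peak of Glra1, a glycine receptor subunit gene, had 25 against 1 and named a LINE beside the SINE, on chromosome 11 at 55537251. Pi15, a peptidase inhibitor gene, was assigned a peak of 24 against 1 on chromosome 1 at 17449301. The peak of Marcks, a substrate of protein kinase C, had 23 against 3, on chromosome 10 at 36920411. Zfp217, a zinc finger gene, was assigned a peak of 22 against 2 on chromosome 2 at 169810601. Peaks assigned to Nefh, Car7 and Mrgprd had the same height of 22, with Dam-only heights of 2, 3 and 6; Zfp217 was ranked before them by its lower Dam-only height and, against Nefh, by chromosome order. The Dam-only height was 1 at 7 of these 13 peaks, against 54.1% of the SINE peaks of height 15 or more and 72.97% of all SINE peaks. SINEs exist in many similar copies, and no source used here says how reads that map to several places were treated. What part this had in the heights was not tested.

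**Figure D4:**
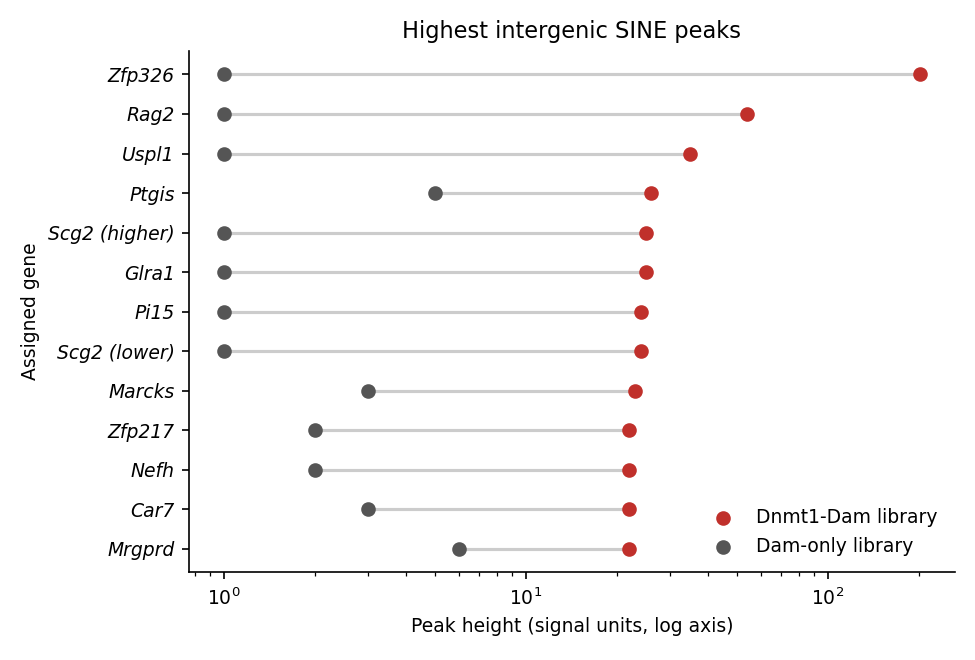
Heights (signal units, log axis) of the 13 highest intergenic SINE peaks in the Dnmt1-Dam library (red) and the Dam-only library (grey), by assigned gene, ranked by Dnmt1-Dam height. The heights run from 22 to 202 in the Dnmt1-Dam library and from 1 to 6 in the Dam-only library; Scg2 has 2 peaks.

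At the other end of the contrast, the largest Dam-only heights at SINE peaks were 8 and 7. Psap, the precursor gene of the lysosomal saposins, was assigned a peak of 18 against 8 in a CpG island shore 40.1 kb upstream, on chromosome 10 at 59700351. A second SINE peak in that shore, at 59700791, had 8 against 1. Stim2, a calcium sensor gene of the endoplasmic reticulum, was assigned a peak of 16 against 8 on chromosome 5 at 54596201. Peaks assigned to Nup160, a nuclear pore gene, and Odc1, the ornithine decarboxylase gene of polyamine synthesis, had 14 against 7 each, on chromosome 2 at 90500751 and chromosome 12 at 17531711. The ratio was 2 at the peaks of Stim2, Nup160 and Odc1, the smallest ratio in the table, and 2.25 at the higher peak of Psap.

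CpG island contexts were named at 44 SINE peaks (6.995%, 5.13 to 9.28), against 4.93% of the other intergenic peaks (4.24 to 5.69), a difference of 2.07 percentage points (0.165 to 4.43). Shores, the flanks next to islands, accounted for 29 of them (4.61%, 3.11 to 6.55, against 2.62%). Islands accounted for 6 (0.954%, 0.351 to 2.06, against 0.338%) and the outer shelves for 9 (1.43%, 0.656 to 2.70, against 1.97%). CpG contexts also lay near genes: within 50 kb of the start site they were named at 10.8% of SINE peaks and 8.05% of the others (2.70 percentage points, -0.879 to 7.13), and at 50 to 200 kb at 4.76% and 5.65%. Within these distance classes the intervals of the difference included 0. Against the intergenic peaks with no named repeat the interval also included 0 (1.86 percentage points, -0.139 to 4.26), and among peaks of height 15 or more the direction turned (-0.837 percentage points, with 61 SINE peaks).

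The 6 SINE peaks in islands had heights of 7 to 9. The median of all intergenic SINE peaks was 9, and 39.4% of them reached 10. Zmat2, a splicing factor gene, was assigned a peak of 9 against 1 on chromosome 18 at 36960261, and Sfr1 (6330577E15Rik in the file), a recombination repair gene, a peak of 9 against 3 on chromosome 19 at 47837401. The peak assigned to Gm833 had 8 against 2, on chromosome 4 at 152116451. Those assigned to Cdkn1b, an inhibitor of cyclin-dependent kinases, Med13, a Mediator subunit gene, and Ddr1, a collagen receptor gene, had 7 against 1 each, on chromosomes 6, 11 and 17 at 134897871, 86201651 and 35865891. All 6 lay within 50 kb of the assigned start site, as did 44.4% of all intergenic SINE peaks. With 6 peaks nothing particular to islands can be read from these values. In shores the 3 highest were those of Ptgis and Psap, above, and a peak of 16 against 1 assigned to Rnf4, a SUMO-directed ubiquitin ligase gene, on chromosome 5 at 34659051. In shelves the highest were at Mapre1, a microtubule end-binding gene (12 against 1), Hif1an, an inhibitor of hypoxia signaling (10 against 1), and Mobp, a myelin gene (10 against 4).

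Most SINE peaks stood alone. Another peak of any class lay in the same run, with gaps of at most 1 kb, at 63 of them (10.02%, 7.78 to 12.6), against 12.7% of the other intergenic peaks (-2.68 percentage points, -5.08 to 0.116). Among neighbors that both named a SINE, 19 pairs were at most 200 bp apart, with gaps from 70 to 150 bp. The Dnmt1-Dam heights of such a pair differed by a median of 1. The largest difference was 9, at Rnf4, where 34659051 had 16 and 34659161 had 7. The fragment size of both libraries was 300 bp, longer than these gaps, so the peaks of a pair cannot be taken as separate sites. The height difference of unrelated peaks was not computed. Both peaks were at a Dam-only height of 1 in 10 of the 19 pairs. The closest pair, 70 bp apart on chromosome 11 at 37030581 and 37030651, lay upstream of Tenm2, with 11 against 1 and 13 against 1. Next came 3 pairs at 80 bp. Zmat3, an RNA-binding p53 target gene, had 9 against 2 and 13 against 1. Sik2, a salt-inducible kinase gene named Snf1lk2 in the file, had 12 against 4 and 7 against 1. Mylip, a ubiquitin ligase gene of the LDL receptor, had 8 against 1 at both peaks. With each run counted once, the recalculated shares and medians stayed within the intervals of the main values.

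The 629 peaks were assigned to 569 genes, of which 515 had 1, 48 had 2 and 6 had 3. Of the 6, Uspl1 had all 3 of its peaks in SINEs, at 59.7 to 65.1 kb upstream, with heights of 35, 11 and 8, each against 1. Trps1, a GATA-type repressor gene of cartilage and hair, had 7 intergenic peaks, of which 3 named a SINE (15, 7 and 7, each against 1), spread over both sides of the gene. Tenm2, a teneurin adhesion gene named Odz2 in the file, had 10 intergenic peaks and 3 in SINEs, the third of 11 against 5. Zmat3 had 4 intergenic peaks and 3 in SINEs, the third of 8 against 2. Parp8, of the ADP-ribosyltransferase family, had 6 and 3, with 12, 10 and 8, each against 1. Wdr41, a partner of the C9orf72 protein in autophagy and lysosome regulation, had 4 and 3, with 12 against 1, 11 against 1 and 8 against 2. In 4 of these 6 genes (Tenm2, Zmat3, Parp8 and Wdr41) a pair at most 100 bp apart made up 2 of the 3 peaks.

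Peaks assigned to genes of early development and retroelement control were then listed. Among all 2542 genes with an intergenic peak, 569 (22.4%) had one in a SINE. The share of all annotated genes with an intergenic peak was not computed. The counts of list genes with an intergenic peak are therefore given without a background, and no preference for a list can be read from them. In the list of pluripotency and first lineage genes, 14 of 30 had an intergenic peak and 5 of these had one in a SINE. They were Klf4, a reprogramming factor (10 against 1, 474 kb upstream), Gata6, a factor of primitive endoderm (8 against 1), Fgfr2, a fibroblast growth factor receptor (8 against 1), Tbx3, a T-box factor (7 against 1), and Gata3, a trophoblast factor (7 against 1). Each of the 5 peaks lay over 100 kb away from its gene's start, as did 38.0% of all intergenic SINE peaks. In the list of 35 DNA methylation and retroelement silencing genes, 6 had an intergenic peak and 2 had one in a SINE, namely Setdb1, the histone H3 lysine methyltransferase gene of retroelement silencing (10 against 1, 30.5 kb upstream), and Hdac2, a histone deacetylase gene (10 against 1). Of 52 imprinted genes 9 and 1 did, the latter Igf2r (7 against 1, 23.8 kb upstream), and of 25 housekeeping genes 2 and 1, the latter Gusb (8 against 1). Among 30 genes of the 2-cell stage 4 had an intergenic peak and none had one in a SINE. The 9 peaks of these lists had heights of 7 to 10, each against 1, where 72.97% of all SINE peaks had a Dam-only height of 1 and 9.70% reached 15. With 9 peaks nothing particular to these genes can be read from this.

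The repeat annotation was simple at most of these peaks. A SINE was entered once and alone at 510 (81.1%), more than once and alone at 44 (6.995%), and with another class at 75 (11.9%). Simple repeats were the most frequent partner, at 24 peaks, followed by LINEs at 20, LTR elements at 18 and DNA transposons at 6. The 44 peaks with several SINE entries alone had the shortest median distance to the start site, 24.2 kb. It was 54.6 kb for peaks with another class and 71.4 kb for those with 1 entry. These median distances have no interval here. Peaks with several entries had a median height of 8 (quartiles 7 and 10), against 9 (quartiles 8 and 11) with 1 entry. A Dam-only height above 1 was listed at 10 of 44 (22.7%, 11.5 to 37.8) against 27.6% (23.8 to 31.7).

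SINE peaks were found on all autosomes and on the X chromosome, at 0.248 per Mb of autosome and 0.102 per Mb of X, lengths being taken up to the last peak. The X to autosome ratio was 0.412 (0.238 to 0.665), and that of the other intergenic peaks was 0.390 (0.313 to 0.480), so the ratios could not be told apart. Among the 61 SINE peaks of height 15 or more the ratio was 1.04, without an interval. It rests on a part of the 17 SINE peaks on the X. The X peaks of that height include a pair 120 bp apart assigned to Slc6a14, of heights 16 and 15, which cannot be taken as separate sites. No such ratio is given here for the other intergenic peaks of that height, so a change with height cannot be read from it. The SINE share of intergenic peaks was 15.7% on the X (9.45 to 24.0) and 15.0% on the autosomes (13.9 to 16.2). Chromosome 11 had the highest share, 42 of 209 (20.1%, 14.9 to 26.2), and chromosome 9 the lowest, 21 of 206 (10.2%, 6.42 to 15.2). The interval of every autosome included the autosomal mean. The Y chromosome had 1 intergenic peak, with no SINE.

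**Figure D5:**
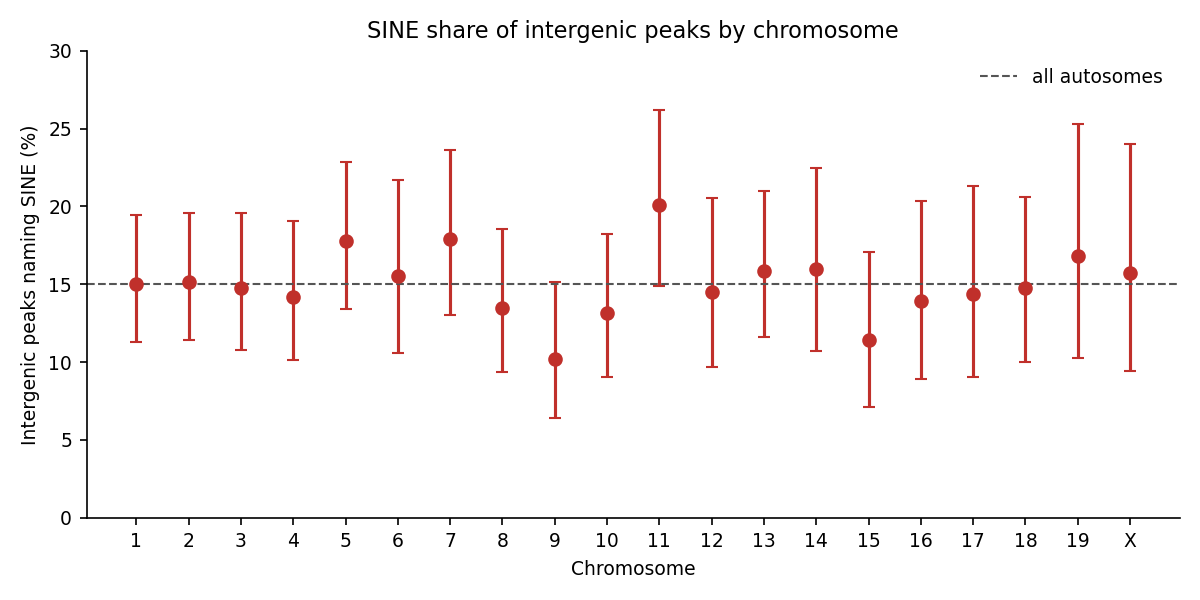
SINE share of intergenic peaks (%) on each chromosome with 95% exact binomial intervals; the dashed line is the share over all autosomes, 15.03%. The points run from 10.2% on chromosome 9 to 20.1% on chromosome 11, and each bar crosses the line.

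The 642 SINE peaks inside gene bodies served as the class most like these. Their heights had the same median and quartiles (9, 8 and 11), and 10.7% reached 15, against 9.70% of the intergenic ones (-1.05 percentage points, -4.40 to 2.31). A Dam-only height above 1 was listed at 23.4% of them and at 27.0% of the intergenic ones (3.66 percentage points, -1.11 to 8.42). A ratio of 10 or more was found at 28.7% of the gene body and 23.5% of the intergenic SINE peaks (-5.13 percentage points, -9.93 to -0.299), the intergenic share being the lower on 13 of 19 autosomes. CpG island contexts were named at 8.88% and 6.995%, an interval of difference that included 0 (-4.89 to 1.11).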

How the data were processed

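The authors deposited a table of 8226 peaks, each with 1 position on a 10 bp grid and a height (signal) in the Dnmt1-Dam and in the Dam-only library. CASAVA and BWA were used and the build was mm9, per the submitters' processing notes. No source used here gives the peak caller or the scaling of the heights, so no count model was used. Members were the peaks naming SINE among the repeat classes and located as intergenic. Members, gene lists and measures were chosen with earlier results of these data known.

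Python 3.11.15 with pandas 2.3.3 and SciPy 1.17.1 was used. Shares have exact Clopper-Pearson intervals, differences of shares Newcombe's, medians order-statistic intervals and the X ratio an exact conditional interval, all at 95% and checked on simulated data. The log2 ratio had a pseudocount of 1. The RefSeq table of GRCm38.p6 gave gene names only: 612 SINE peaks matched by accession and 17 by gene ID. Named were the 10 highest peaks, the genes with the most peaks, all peaks in islands, the 3 highest in shores and shelves, the nearest and farthest 3, the 3 highest by Dam-only height, the 3 closest pairs (ties included) and the members on the gene lists. Alternatives were other height, distance and ratio limits, peaks at a Dam-only height of 1, 1 peak per 1 kb run of all peaks, SINE alone, intergenic peaks without a repeat as comparison, and no sex chromosomes.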

Additional observations from a re-analysis of the deposited data

How the results depend on the processing

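Of 133 recalculated values of 15 results, 105 stayed within the interval of the main value (for the count, within 1.5 times) and 28 did not. In sign, 6 values differed from the main one. Of these, 4 were the difference past a ratio of 10, whose main interval included 0 (0.381 percentage points): -2.62 with height 9 or more, -4.13 with height 15 or more, -0.897 against peaks without a repeat and -2.58 within 100 kb. The other two were the median log2 ratio without scaling and the CpG context at height 15 or more. Among peaks of height 15 or more (61 SINE and 278 other intergenic peaks), the difference in CpG island context was -0.837 percentage points. The differences at a Dam-only height of 1 (-0.938) and beyond 100 kb (-8.66) lay outside the main intervals too. No value recalculated in this smaller set has an interval here, so a change with height cannot be read from them. The shares there were 54.1% at a Dam-only height of 1, 57.4% past the ratio and 4.92% with a CpG context, the median height was 17 and the X ratio was 1.04. With height 9 or more, 345 peaks remained, of which 17.7% reached 15, 60.0% had a Dam-only height of 1 and 42.9% passed the ratio, with a median height of 11. At a Dam-only height of 1, 7.19% reached 15 and 31.8% passed the ratio, with a median height of 8. These 3 sets are selected by a height, which moves shares defined by height by construction. Within 100 kb of the start site (390 peaks) 9.49% had a CpG context. Beyond 50 kb lay 55.6% and beyond 200 kb 22.3%. A ratio of 8 was reached by 51.4% and of 15 by 5.25%. The median log2 ratio was -0.25 with a pseudocount of 0.5, -1.64 with 5 and 2.17 unscaled. Measured to the nearer end of the gene, the median distance was 52.0 kb. The sets within 100 kb, without CpG contexts and without the highest peak, and the distance to the nearer end, were chosen after seeing the data. The values within 1 peak per 1 kb run, with SINE alone and without the sex chromosomes all stayed. The share at height 15 among peaks of that height, and the like, cannot vary and was not computed. No paired analysis was possible because each group is 1 library.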
